A study of Mus musculus with 11 samples.

Results

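The genes described here are 9 genes of the epithelial-mesenchymal transition: the transcription factor genes Snai1, Snai2, Twist1, Twist2, Zeb1 and Zeb2, and the structural genes Vim, Cdh2 and Fn1. They were chosen by name, and every array probe whose RefSeq accession leads to one of them was used. That gave 11 probes for 9 of the 20145 genes with a named probe. All 9 genes were among the 14068 named genes tested. One of the 11 probes, a second one for Zeb2, was too dim to test.

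RNA was profiled on one-colour Agilent mouse arrays from mammary outgrowths, the glands that form after transplantation of mammary epithelial cells. The donor cells were primary mouse mammary cells infected in suspension with lentivirus and injected in matrigel. The virus carried a hairpin against Ror2, a receptor of noncanonical Wnt signalling (shROR2), or one against luciferase as control (shLUC), so the control groups also went through infection and hairpin expression. Outgrowths were sorted by the surface markers CD24 and CD29 into basal cells, the outer contractile layer, and luminal cells, the inner secretory layer. The 4 groups were basal shROR2 (3 arrays), basal shLUC (3 arrays), luminal shROR2 (2 arrays; a further sample of this group was not analysed here) and luminal shLUC (3 arrays). The labels give neither strain, age and time after injection, nor which samples shared an outgrowth. They describe the triplicates as biological, and p-values measure the spread between these arrays.

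Snail, Twist and Zeb proteins are DNA-binding factors best known for driving epithelial cells towards a mesenchymal state in embryos, wounds and tumours. Snail and Zeb proteins repress epithelial junction genes through E-box sequences, with corepressors such as CtBP and histone deacetylases, and Twist proteins act as dimers with other basic helix-loop-helix proteins. In the mammary gland, Snai2 (also called Slug) is known as a factor of the basal layer, which keeps epithelial junctions while it expresses contractile and matrix genes.

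Per array, 52.8% to 59.5% of probes were well above background. Each of the 2 slides carried arrays of all 4 groups. Arrays within a group correlated at 0.941 to 0.953 in basal shROR2, 0.976 to 0.982 in basal shLUC, 0.983 in luminal shROR2 and 0.981 to 0.983 in luminal shLUC, so the basal shROR2 arrays agreed least with each other. The sort labels fitted their markers: the summed signal of 10 basal marker genes, in units of each array's 75th percentile, was 1624 to 1695 in basal shROR2 and 1726 to 1969 in basal shLUC, against 119.9 to 126.9 in luminal shROR2 and 115.4 to 122.2 in luminal shLUC. The hairpin's target could not be checked. Ror2 had signals of 16.8, 3.03 and 6.93 in basal shROR2 and 11.1, 12.1 and 10.1 in basal shLUC, 3.54 and 8.47 in luminal shROR2 and 3.14, 3.44 and 3.48 in luminal shLUC. Only the highest of these, on the array labelled basal shROR2 replicate 1, was well above background, and an exact permutation test gave p = 0.7 in basal cells (log2 difference -0.57) and p = 0.3 in luminal cells (0.67), where 0.1 is the smallest p either design allows. A signal this near background does not show whether the hairpin acted in that sample. Because the highest Ror2 signal fell on an array labelled shROR2, basal hairpin results are also given without it.

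Values below are the scanner's background-subtracted processed signals, or their log2 after scaling each array to its 75th percentile, called the scaled log2 level. A change is a difference of mean scaled log2 levels with its standard error from limma. It was called where the Benjamini-Hochberg adjusted p, over 29429 features, was under 0.05. Levels of different genes are not compared, because probes differ in brightness.

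Snai2 separated the layers most widely among the 9 genes. Its processed signal was 2025, 2379 and 1992 in basal shROR2 and 2595, 3010 and 2302 in basal shLUC, against 16.9 and 19.0 in luminal shROR2 and 5.64, 7.42 and 6.79 in luminal shLUC. Every basal array lay far above every luminal array, the basal groups overlapped, and both luminal shROR2 arrays lay above all 3 luminal shLUC arrays. On the scaled log2 scale the group means were 4.22 ± 0.13 in basal shROR2, 4.44 ± 0.10 in basal shLUC, -2.72 ± 0.17 in luminal shROR2 and -4.13 ± 0.18 in luminal shLUC (SD, n = 3, 3, 2 and 3). The luminal shLUC signals were not well above background on any array, so the difference there is a bound: Snai2 was at least 193-fold higher in basal than in luminal shLUC cells (adjusted p = 3.43e-09). In shROR2 outgrowths, where Snai2 was measured in both layers, it was 123-fold higher in basal cells (6.94 ± 0.15, adjusted p = 3.39e-08). Its luminal shROR2 signals lay close to the lowest signals well above background on those arrays (13.3 and 14.2). The fitted shROR2 change fell to 4.70 in the lowest of the alternative settings. Without its basal arrays, where it is high, Snai2 would not have entered the test, so its layer calls are not independent of that selection. Across the alternative processing settings the fitted shLUC change ran from 5.03 to 8.66 and was called in each; the lowest values came with normexp correction, which adds an offset of 50 to every signal, and with the authors' values, whose lowest value is well above 0.

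Snai1, which encodes the other main Snail factor, was dim. Its signal was 27.6, 32.5 and 27.3 in basal shROR2 and 15.2, 9.51 and 11.7 in basal shLUC, against 11.2 and 14.2 in luminal shROR2 and 8.55, 3.28 and 8.23 in luminal shLUC. It was well above background on the 3 basal shROR2 arrays alone, and entered the test only through them. These 3 arrays lay above all 8 others, while basal shLUC overlapped both luminal groups on the scaled scale. Basal against luminal cells gave 1.26 ± 0.41 in shROR2 (adjusted p = 0.0586, at least 2.19-fold) and no measurable ratio in shLUC, where both layers were below that limit. Snail and Zeb proteins bind the E-box hexamer CACCTG, which was looked for on both strands, so also as CAGGTG, in the RefSeq windows (assembly GRCm38.p6) of 250 bases before transcript starts. Of these 9 genes, 5 had windows searched here (Twist2, Vim, Zeb2, Snai1 and Twist1), and 1 of the 5 held it, Snai1, beside 19.434% of 27025 genes. Its window is shown for the site that a Snail factor's own gene carries, read 5′ to 3′ on the strand of the gene with the hexamer in capitals; it begins 126 bases before the start.
Snai1 (chr2:167537945-167538194, plus strand): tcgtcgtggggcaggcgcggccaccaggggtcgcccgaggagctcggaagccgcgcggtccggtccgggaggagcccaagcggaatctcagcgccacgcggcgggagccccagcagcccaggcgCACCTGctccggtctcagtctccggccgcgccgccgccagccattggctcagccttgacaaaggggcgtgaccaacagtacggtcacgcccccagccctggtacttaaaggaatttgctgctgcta

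Twist1, the factor of mesoderm and cranial mesenchyme, had signals of 13.8, 29.7 and 18.8 in basal shROR2 and 13.6, 21.1 and 25.9 in basal shLUC, against 5.19 and 2.95 in luminal shROR2 and 2.60, 2.79 and 2.90 in luminal shLUC. All basal arrays lay above all luminal arrays, and no luminal array was well above background. Twist1 entered the test only through basal arrays, where it is high, so its layer calls are not independent of that selection. Twist1 was at least 1.49-fold higher in basal cells of shROR2 outgrowths (2.39 ± 0.37, adjusted p = 0.00166) and at least 1.44-fold higher in those of shLUC outgrowths (2.76 ± 0.33, adjusted p = 0.000296), where 2 of 3 basal arrays were well above background. The fitted shLUC change ran from 0.36 to 2.99 over the alternative settings and was called in each. Twist2, its close relative of dermis and bone, had signals of 13.6, 18.7 and 30.4 in basal shROR2 and 17.8, 20.9 and 2.89 in basal shLUC, against 11.1 and 9.68 in luminal shROR2 and 7.52, 12.2 and 12.3 in luminal shLUC. One basal shLUC array lay below every other array, and no comparison of Twist2 was called. Twist2 also entered the test only through basal arrays. In shROR2 all 3 basal arrays lay above both luminal arrays (0.98 ± 0.74, adjusted p = 0.389, at least 1.49-fold).

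Zeb1 and Zeb2 encode zinc finger and homeodomain repressors that share targets with Snail. Zeb1 had signals of 144.7, 29.8 and 19.1 in basal shROR2 and 89.3, 53.0 and 66.1 in basal shLUC, against 38.8 and 26.1 in luminal shROR2 and 27.2, 17.4 and 37.7 in luminal shLUC. The array labelled basal shROR2 replicate 1 held the highest Zeb1 value of all 11 arrays and another array of its group the second lowest, a spread (SD 1.53 on the scaled log2 scale) wider than in any other group. All basal shLUC arrays lay above all luminal shLUC arrays, yet the change of 1.31 ± 0.67 was not called (adjusted p = 0.188). It was called without that basal shROR2 array, which adds only to the shared spread (adjusted p = 0.0248), and when only the groups compared were fitted (adjusted p = 0.0343). Zeb2 had signals of 85.0, 97.0 and 114.6 in basal shROR2 and 58.0, 83.6 and 49.7 in basal shLUC, against 70.4 and 71.8 in luminal shROR2 and 47.4, 79.3 and 61.1 in luminal shLUC. The basal shROR2 arrays lay above all others, and the other 3 groups overlapped. Basal against luminal cells gave 0.52 ± 0.24 for Zeb2 in shROR2 (adjusted p = 0.163) and -0.04 ± 0.22 in shLUC (adjusted p = 0.917). The second Zeb2 probe was well above background on 1 luminal shLUC array only, at 25.95, and lay between 2.21 and 9.61 elsewhere.

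**Figure D1:**
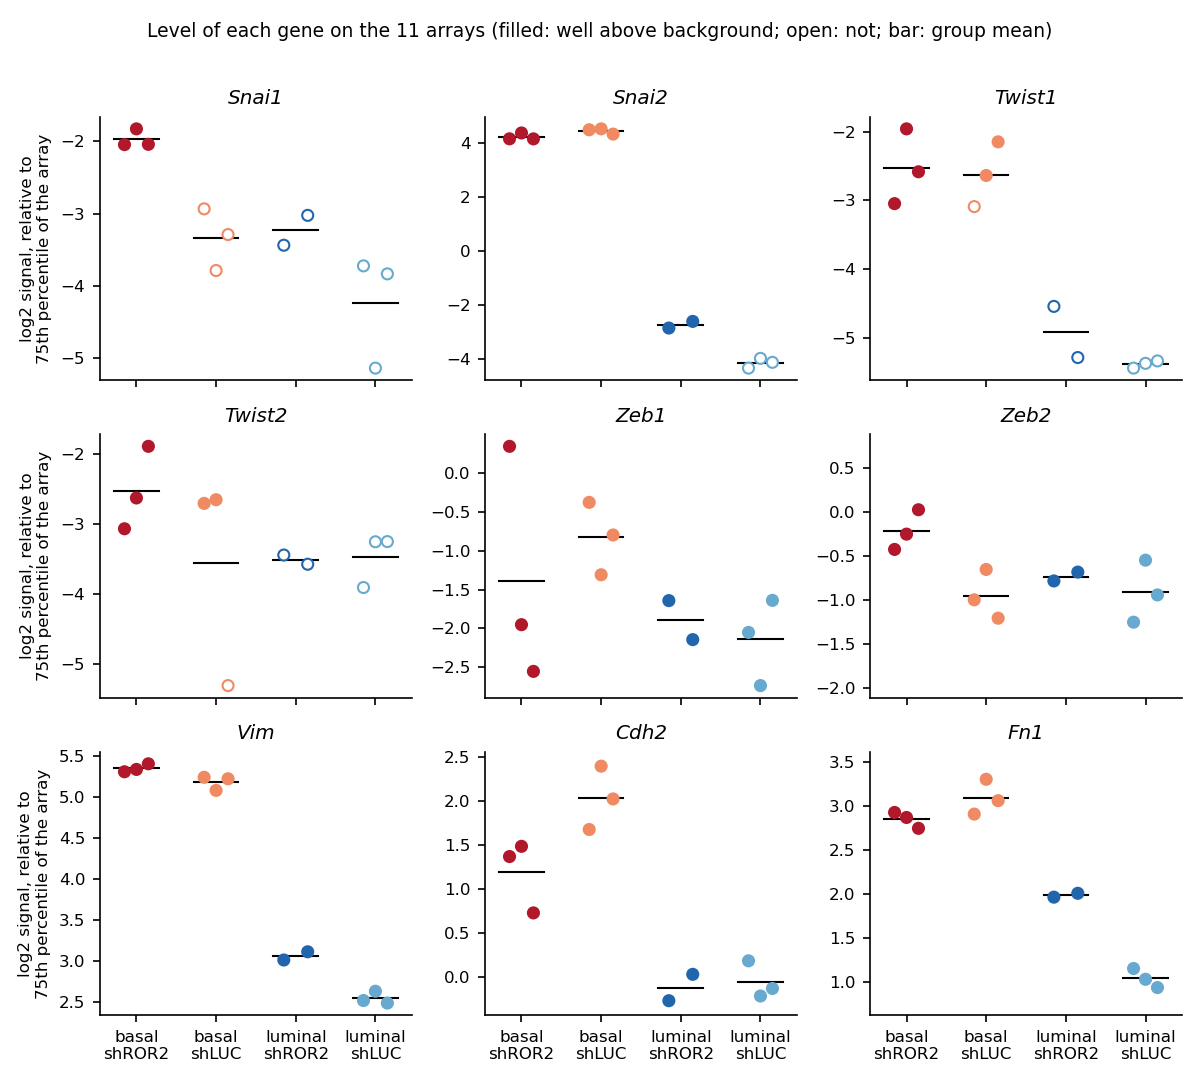
Scaled log2 level of each of the 9 genes (y axis; log2 of processed signal relative to the array's 75th percentile) on every array, by group on the x axis; filled points were well above background, open points were not, and the bar is the group mean. Snai2, Twist1, Vim, Cdh2 and Fn1 separate all basal from all luminal arrays, Snai1 is filled in basal shROR2 only, and Zeb1 is spread over the whole panel in basal shROR2.

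The structural genes were well above background on every array. Vim, which encodes the intermediate filament vimentin, had signals of 4519, 4663 and 4764 in basal shROR2 and 4386, 4448 and 4291 in basal shLUC, against 974 and 994 in luminal shROR2 and 644, 715 and 655 in luminal shLUC. No groups overlapped, and their order was basal shROR2, basal shLUC, luminal shROR2 and luminal shLUC. Vim was 4.90-fold higher in basal cells in shROR2 (2.29 ± 0.11, adjusted p = 2.04e-06) and 6.245-fold in shLUC (2.64 ± 0.10, adjusted p = 2.45e-07).

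Fn1, which encodes the matrix protein fibronectin, had signals of 867, 843 and 754 in basal shROR2 and 871, 1299 and 959 in basal shLUC, against 472 and 463 in luminal shROR2 and 250.3, 236 and 224 in luminal shLUC. The basal groups overlapped on the scaled scale, and the luminal shROR2 arrays lay between them and luminal shLUC. Fn1 was 1.82-fold higher in basal cells in shROR2 (0.86 ± 0.14, adjusted p = 0.00256) and 4.16-fold in shLUC (2.06 ± 0.13, adjusted p = 4.93e-06).

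Cdh2, which encodes N-cadherin, the cadherin of neural and mesenchymal cells, was read by 2 probes. The brighter had signals of 294, 322 and 186 in basal shROR2 and 370.5, 692 and 467 in basal shLUC, against 100 and 117 in luminal shROR2 and 127.8, 99.3 and 106.8 in luminal shLUC. The second had signals of 85.2, 103.3 and 61.6 in basal shROR2 and 173.5, 182 and 209.7 in basal shLUC, against 53.2 and 43.8 in luminal shROR2 and 43.2, 32.5 and 45.6 in luminal shLUC. With both probes the basal groups did not overlap, basal shLUC being the higher, and the luminal groups did. Cdh2 was 2.49-fold higher in basal cells in shROR2 (1.32 ± 0.28, adjusted p = 0.00905) and 4.265-fold in shLUC (2.09 ± 0.25, adjusted p = 0.000306). The second probe gave 0.81 ± 0.24 in shROR2 and 2.17 ± 0.21 in shLUC. The shROR2 call for Cdh2 was lost when only the groups compared were fitted (adjusted p = 0.0661) and without luminal shROR2 replicate 1 (1.17, adjusted p = 0.082).

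In all, 5 of the 9 genes (Snai2, Twist1, Vim, Cdh2 and Fn1) were called higher in basal cells and none lower, both in shROR2 and in shLUC. Of all features tested, 22.9% were called in shROR2 (10.6% higher) and 26.9% in shLUC (13.8% higher). Snai2 and Twist1 are in the test only because of their basal arrays, so the count of 5 is not independent of that selection. Vim, Cdh2 and Fn1 were well above background on every array. The median change over the 9 genes was 1.26 in shROR2 and 2.06 in shLUC, beside -0.08 in shROR2 and -0.06 in shLUC over all features. The shROR2 median is the fitted value of Snai1, which was not well above background on any luminal array and entered the test only through basal shROR2. It is thus not a measured difference. All basal arrays lay above all luminal arrays for 8 of the 9 genes in shROR2, where Zeb1 overlapped, and for 6 in shLUC. Of the 8, Snai1, Twist1 and Twist2 had no luminal array well above background and entered the test only through basal arrays. Twist1 is also among the 6. Among all features the layers did not overlap for 45.6% in shROR2 (19.7% higher, 26% lower) and for 52.2% in shLUC (23.7% higher, 28.4% lower). The layers differed in the same direction on both slides for each of the 5 called genes. Taken by slide, the shROR2 change was 1.73 and 3.33 for Twist1, and the shLUC change was 1.67 and 2.58 for Cdh2, while Snai2, Vim and Fn1 moved less between the slides (Snai2 at 6.99 and 6.96 in shROR2). In bulk arrays, a difference in the share of a cell type and a difference in RNA per cell cannot be told apart. Markers of fibroblasts, which express Vim, Fn1, Twist and Zeb genes, moved the same way: of 10 such genes, 8 were tested, and 6 were called higher in basal cells in shROR2 and 8 in shLUC. Their summed scaled signal was 53.7 to 70.1 in basal shROR2 and 53.9 to 59.2 in basal shLUC, against 11.6 to 12.1 in luminal shROR2 and 6.75 to 6.94 in luminal shLUC. Pdgfra was not well above background on any basal shROR2 array and Dpt on any basal shLUC array, and Dpt, Lum and Pdgfra were below that limit on every luminal array. Lum and Pdgfra thus entered the test only through basal arrays, so the fibroblast counts are not independent of that selection. Endothelial markers were called higher in basal cells for 7 of 9 in shROR2 (median 2.14) and 6 of 9 in shLUC (median 2.27). Pericyte markers were called higher for 4 of 6 in shROR2 (median 1.28) and 3 of 6 in shLUC (median 1.81), with 1 of 6 lower in each. Among them, Des and Pdgfrb were not well above background on any luminal array, so these counts are not independent of the filter either. Leukocyte markers were called higher for 0 of 8 in either, and lower for 2 in shROR2 and 4 in shLUC. The part of RNA from these cells in the layer differences was not tested.

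**Figure D2:**
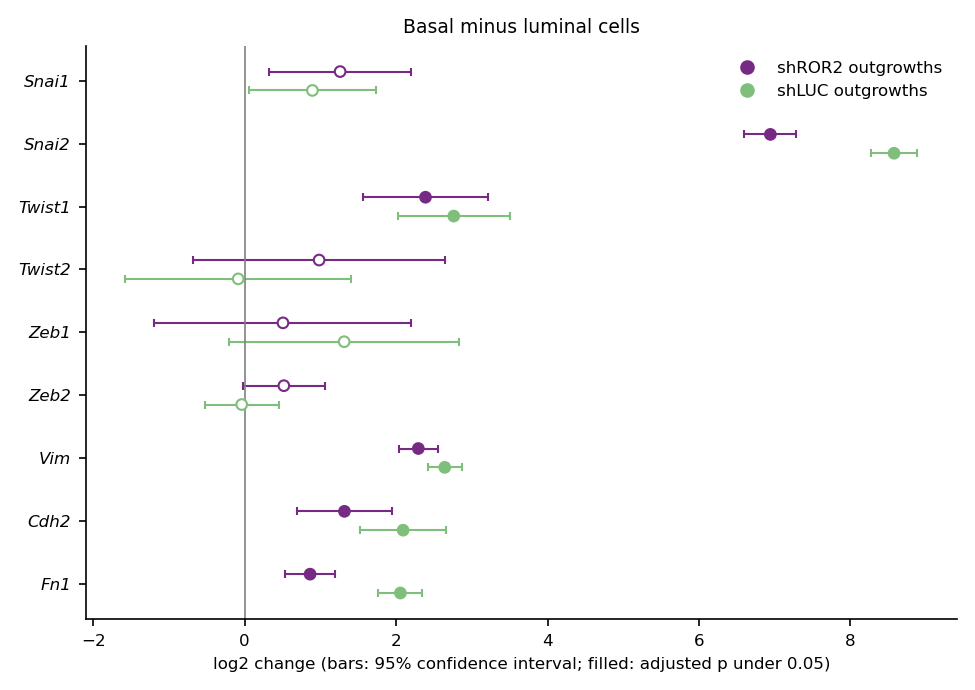
Change between basal and luminal cells for each gene (x axis; log2, basal minus luminal; positive means higher in basal cells) in shROR2 and shLUC outgrowths, with 95% confidence intervals; filled points had an adjusted p under 0.05. The same 5 genes are filled in both, from Snai2 at 6.94 and 8.58 down to Fn1 at 0.86 in shROR2 and 2.06 in shLUC. The luminal shLUC signals of Snai2 and all luminal signals of Twist1 were not well above background, so the sizes fitted from them are not measured differences.

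In luminal cells, none of the 9 genes was called between shROR2 and shLUC by limma, where 0.0034% of features were (1 feature, with 1633 at an unadjusted p under 0.05). Snai2 came nearest. Its change was 1.41 ± 0.15 (adjusted p = 0.0519), with both shROR2 arrays well above background and none of the 3 shLUC arrays, so that the measured bound is at least 1.35-fold. The fitted size rests on shLUC signals near background. Snai2 was called under quantile normalization (adjusted p = 0.0328), under a filter that asks for signal on every array of 1 group (0.0321), with array weights (0.0121) and without basal shROR2 replicate 2 (0.0387). Over all alternatives its adjusted p ran from 0.0121 to 0.999, and its change fell to 0.12 with the raw signals corrected by normexp.

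Fn1 (0.95 ± 0.14, 95% confidence interval 0.62 to 1.27, adjusted p = 0.157) and Vim (0.52 ± 0.11, 0.26 to 0.77, adjusted p = 0.333) also had both luminal shROR2 arrays above all luminal shLUC arrays. Fn1 was called with array weights (adjusted p = 0.0293). Snai1 and Twist1 lay on the same side without overlap but were below the detection limit in both groups. Groups that do not overlap were common here, at 29% of all features (14.8% higher). Twist2 (-0.04), Zeb1 (0.25), Zeb2 (0.18) and Cdh2 (-0.07) had overlapping groups. The interval for Zeb1 ran from -1.45 to 1.95 and that for Cdh2 from -0.70 to 0.57. Fibroblast markers in luminal cells summed to 11.6 to 12.1 in shROR2 and 6.75 to 6.94 in shLUC, with 0 of 8 called and a median change of 0.71. Basal markers in luminal cells summed to 119.9 to 126.9 in shROR2 and 115.4 to 122.2 in shLUC, with 0 of 10 called and a median of 0.07. Without Krt14, the brightest, the basal sums were 107.6 to 109.9 in luminal shROR2 and 98.8 to 107.3 in luminal shLUC. The 10 single basal marker changes ran from -0.16 to 1.41, and 6 were positive. Endothelial markers summed to 14.3 to 14.8 in luminal shROR2 and 11.3 to 12 in luminal shLUC, with 0 of 9 called and a median change of 0.82. Without Kdr, the brightest, the endothelial sums were 6.051 to 6.245 in luminal shROR2 and 2.658 to 3.522 in luminal shLUC. Pericyte markers summed to 4.23 to 4.83 in luminal shROR2 and 3.23 to 3.49 in luminal shLUC, with 0 of 6 called and a median of 0.53. Leukocyte markers without Itgam summed to 80.2 to 83.5 in luminal shROR2 and 66.1 to 69.3 in luminal shLUC, with 0 of 8 of the whole list called and a median of 0.38. Their part in the luminal values of Snai2, Fn1 and Vim was not tested.

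In basal cells, none of the 9 genes was called between shROR2 and shLUC by limma, where 0.948% of features were (110 higher and 169 lower, with 4644 at an unadjusted p under 0.05). When arrays were scaled to their median, the called features divided into 105 higher and 90 lower. Snai1 had all 3 shROR2 arrays above all shLUC arrays (1.37 ± 0.37, adjusted p = 0.131, at least 2.46-fold). Without the array labelled basal shROR2 replicate 1 it was 1.40 ± 0.44 (adjusted p = 0.128). Snai1 entered the test only through the basal shROR2 arrays, where it is high, so its change and its calls are not independent of that selection. It was called in 2 settings with a raised floor: 0.40 with normexp (adjusted p = 0.0375) and 0.37 with the authors' values (0.0386). Zeb2 also had every shROR2 array above every shLUC array (0.74 ± 0.22, adjusted p = 0.152; 0.84 without that array).

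Cdh2 had every basal shROR2 array below every basal shLUC array (-0.84 ± 0.25, adjusted p = 0.158; -0.93 without replicate 1). Its second probe gave -1.12 ± 0.21, with an adjusted p of 0.0536 when all 33611 probes were fitted. Vim lay above in every shROR2 array, by 0.17 ± 0.10 (adjusted p = 0.458; 0.19 without replicate 1). By slide, the basal change was 1.07 and 1.96 for Snai1, 0.91 and 0.40 for Zeb2, and -0.80 and -0.91 for Cdh2. Among all features, 18.5% had basal groups that do not overlap (6.68% higher, 11.8% lower). The other 5 genes overlapped: Snai2 at -0.22 ± 0.14 (-0.19 without replicate 1), Fn1 at -0.24 ± 0.13 (-0.28), Twist1 at 0.10 ± 0.33 (0.35), Twist2 at 1.03 ± 0.66 (1.30) and Zeb1 at -0.56 ± 0.67. The Zeb1 value moved with each basal shROR2 array: it was -1.42 ± 0.39 without replicate 1 (adjusted p = 0.0956), -0.28 without replicate 2 and 0.02 without replicate 3. For Snai2, the 95% confidence interval was -0.53 to 0.09.

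Markers of other cell types differed between the basal groups. Endothelial markers summed to 42.0 to 48.2 in basal shROR2 and 22.3 to 27.4 in basal shLUC, with 2 of 9 called higher (Emcn and Plvap). Pericyte markers summed to 6.34 to 8.16 in basal shROR2 and 4.24 to 5.01 in basal shLUC, with 1 of 6 called higher (Des). Leukocyte markers summed to 522 to 532 in basal shROR2 and 424 to 501 in basal shLUC, with 3 of 8 called higher (Cd74, Laptm5 and Fcer1g). Without Itgam, whose probe was bright in every group, the leukocyte sums were 71.9 to 77.2 in basal shROR2 and 50.9 to 52.8 in basal shLUC. Fibroblast markers overlapped between the groups, with 0 of 8 called. Endothelial cells, pericytes and leukocytes express Vim, Zeb1 and Zeb2, and the part of their RNA in the basal values of Snai1, Zeb2 and Vim was not tested.

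**Figure D3:**
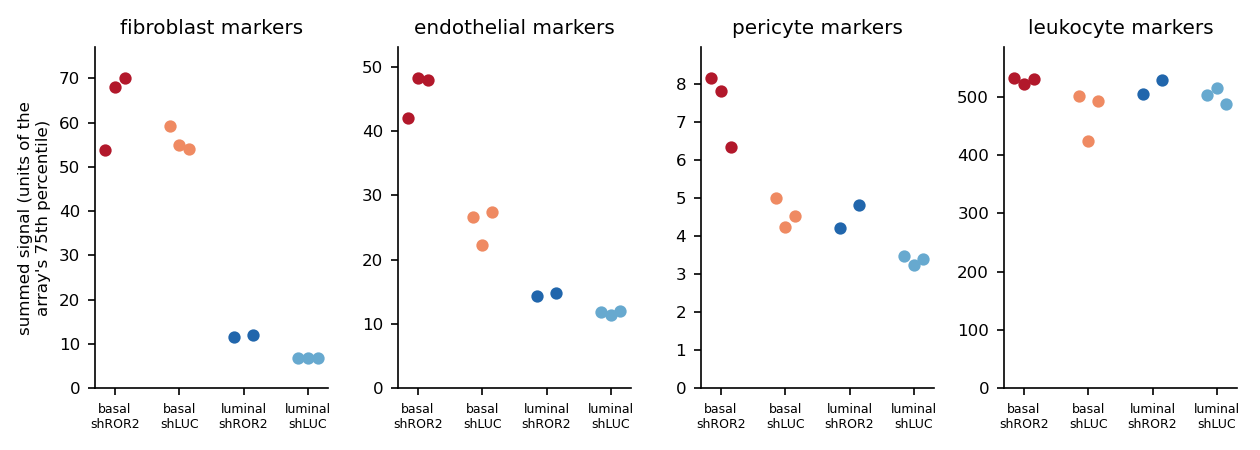
Summed signal of marker genes of 4 other cell types (y axis; units of the array's 75th percentile, linear from 0) on each array, by group. Endothelial sums are 42.0 to 48.2 in basal shROR2 and 22.3 to 27.4 in basal shLUC, and fibroblast sums are 11.6 to 12.1 in luminal shROR2 and 6.75 to 6.94 in luminal shLUC.

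**Figure D4:**
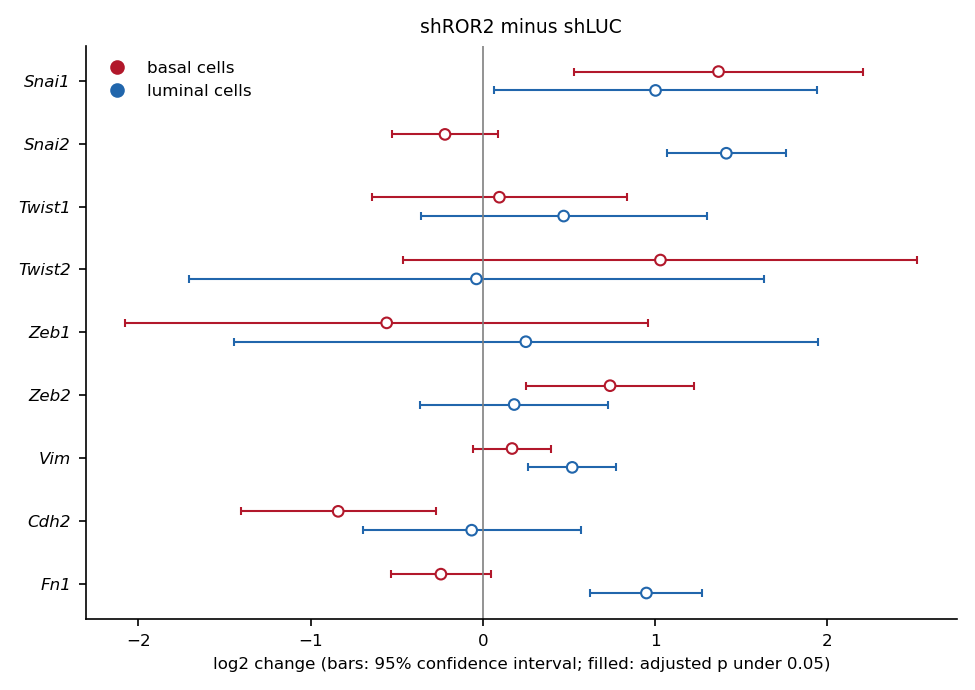
Change between shROR2 and shLUC for each gene (x axis; log2, shROR2 minus shLUC; positive means higher in shROR2) in basal and luminal cells, with 95% confidence intervals. All points are open, since none had an adjusted p under 0.05. Snai2 (1.41), Snai1 (1.00) and Fn1 (0.95) stand farthest to the right in luminal cells. In basal cells Snai2 is at -0.22, Snai1 at 1.37 and Fn1 at -0.24. The luminal shLUC signals of Snai2 and Snai1 were not well above background.

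The hairpin change in basal cells minus that in luminal cells was called for 0 of 9 genes and for 0 of all features (0%) by limma, with 2444 features at an unadjusted p under 0.05. It was -1.19 ± 0.19 for Fn1 (adjusted p = 0.188), with -0.96 on the first slide and -1.46 on the second. For Snai2 the fitted value was -1.63 ± 0.20 (adjusted p = 0.0937), but no luminal shLUC array was well above background for Snai2, so its size rests on signals near background and is not a measured difference. The same holds for Snai1, Twist1 and Twist2, which were below that limit in both luminal groups. Vim (-0.35 ± 0.15), Cdh2 (-0.77 ± 0.37), Twist1 (-0.37 ± 0.49) and Zeb1 (-0.81 ± 1.00) were negative as well, and Snai1 (0.37 ± 0.56), Zeb2 (0.56 ± 0.32) and Twist2 (1.07 ± 0.99) positive. For each gene this is also the basal-luminal change in shROR2 minus that in shLUC.

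Counts for 4 lists of related genes were read from the same fit, each written from general knowledge. Of 20 epithelial genes known as targets of Snail or Zeb repression, 19 were tested (Ovol1 was not). In shLUC, 15 were lower in basal cells, 1 was higher and the median was -2.09; in shROR2 the counts were the same and the median was -1.96. Cldn4, a tight junction claudin, had signals of 569, 968 and 587 in basal shROR2 and 382, 397 and 457 in basal shLUC, against 5426 and 5536 in luminal shROR2 and 5173, 4724 and 6048 in luminal shLUC. Every basal array lay below every luminal array. The shLUC changes were -3.75 ± 0.21 for Cldn4, -3.64 ± 0.14 for the claudin gene Cldn3, -3.06 ± 0.13 for Cldn7 and -2.99 ± 0.14 for Rab25, a small GTPase of apical trafficking (adjusted p from 3.11e-07 to 2.47e-06).

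Cdh1, which encodes E-cadherin and is the best known target of Snail, was lower in basal cells by much less. Its signals were 72.0, 60.2 and 54.6 in basal shROR2 and 86.5, 106.4 and 83.5 in basal shLUC, against 128.1 and 119 in luminal shROR2 and 135.5, 134.8 and 129.5 in luminal shLUC. The groups did not overlap between layers, with changes of -0.94 ± 0.14 in shROR2 (adjusted p = 0.00113) and -0.60 ± 0.12 in shLUC (adjusted p = 0.00585). Dsp, the desmosomal plaque gene desmoplakin, was the exception of the list and was higher in basal cells (1.40 ± 0.15 in shROR2 and 2.16 ± 0.13 in shLUC).

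Between the hairpins, 1 gene of these lists was called. Rab25 had signals of 36.4, 39.2 and 41.9 in basal shROR2 and 80.9, 89.6 and 70.5 in basal shLUC, with no overlap. It fell by 0.95 ± 0.14 on the log2 scale in shROR2 (adjusted p = 0.0253, lower on 3 of 3 arrays), and by 0.90 without the array labelled basal shROR2 replicate 1 (adjusted p = 0.0294). The call was lost with array weights (adjusted p = 0.103), when only both basal groups were fitted (0.186), under the replicate block (0.0842) and without 6 of the other arrays in turn, namely luminal shLUC replicate 1, both luminal shROR2 and all 3 basal shLUC arrays (adjusted p up to 0.102). Dsp (-0.59 ± 0.13, adjusted p = 0.0824) and Cdh1 (-0.49 ± 0.12, adjusted p = 0.106) lay below in every basal shROR2 array too. The claudin genes Cldn4 (0.82 ± 0.21, adjusted p = 0.113), Cldn7 (0.42 ± 0.13, adjusted p = 0.181) and Cldn3 (0.40 ± 0.14, adjusted p = 0.226) lay on the other side, with every basal shROR2 array above every basal shLUC array. Of the 19 targets, 10 had a positive change in basal cells, and the median was 0.06, beside -0.05 over all features. In luminal cells 0 of 19 were called, and Ovol2 (-0.32 ± 0.16) and Crb3 (0.30 ± 0.21) had the smallest p.

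The E-box hexamer searched for in the Snai1 window was found in 17.22% of all 32851 windows and in 68.75% of the 16 windows of epithelial targets. Counted by gene, 12 of the epithelial targets had windows and 9 held it (75%), beside 19.434% of 27025 genes. The targets were listed because Snail or Zeb is known to repress them, so those shares are no independent evidence, and a match is not a bound site. Shown, with the hexamer in capitals and on the strand of the gene, are windows with a match of the 3 target genes that have the smallest p between the layers in shLUC among those that hold one.
Rab25 (chr3:88548280-88548529, minus strand): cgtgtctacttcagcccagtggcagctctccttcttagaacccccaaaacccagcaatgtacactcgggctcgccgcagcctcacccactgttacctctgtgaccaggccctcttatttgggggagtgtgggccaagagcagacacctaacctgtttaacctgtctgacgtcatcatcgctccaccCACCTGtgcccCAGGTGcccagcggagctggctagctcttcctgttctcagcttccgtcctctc
Cldn4 (chr5:134946935-134947184, minus strand): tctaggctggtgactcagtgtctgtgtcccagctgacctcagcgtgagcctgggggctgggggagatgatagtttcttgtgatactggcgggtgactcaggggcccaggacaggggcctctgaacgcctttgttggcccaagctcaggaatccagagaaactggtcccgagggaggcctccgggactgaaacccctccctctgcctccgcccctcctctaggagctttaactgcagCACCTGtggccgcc
Cldn7 (chr11:69965171-69965420, plus strand): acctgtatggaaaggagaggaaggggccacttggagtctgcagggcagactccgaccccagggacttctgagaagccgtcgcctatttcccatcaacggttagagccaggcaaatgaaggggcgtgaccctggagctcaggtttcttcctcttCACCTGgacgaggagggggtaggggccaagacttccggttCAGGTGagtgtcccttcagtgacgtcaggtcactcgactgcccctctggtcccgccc

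The hexamer began 64 and 53 bases before the start of Rab25, 14 before that of Cldn4, and 97 and 57 before one of the starts of Cldn7. The window of Cldn3 held none, although Cldn3 differed between the layers about as much as Cldn4 did.

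Of 16 other transition factors and helix-loop-helix partners or inhibitors, 15 were tested (Gsc was not). Higher in basal cells were 6 in shROR2 and 5 in shLUC, and lower were 0 in shROR2 and 1 in shLUC (Klf8, -1.10 ± 0.24). Id4, an inhibitor of helix-loop-helix dimers, had signals of 321, 336 and 331 in basal shROR2 and 465, 530.2 and 412 in basal shLUC, against 3.00 and 3.26 in luminal shROR2 and 2.84, 3.08 and 3.18 in luminal shLUC. No luminal array was well above background, and Id4 was at least 34.3-fold higher in basal shLUC cells (adjusted p = 3.43e-09). Id4 entered the test only through basal arrays, where it is high, so its layer calls are not independent of that selection. Id1, another such inhibitor (1.59 ± 0.21), Tcf4, an E-protein partner of Twist (1.48 ± 0.18), Sox4, a transition factor (1.41 ± 0.13), and Prrx1, a mesenchymal homeobox factor (2.44 ± 0.51, at least 1.35-fold), were higher as well. Prrx1 too would not have entered the test without its basal arrays, so the counts for this list share that limit. The remaining E-protein genes Tcf3 (0.19 ± 0.11) and Tcf12 (-0.30 ± 0.12) and the Snail family gene Snai3 (0.56 ± 0.24) were not called. Between the hairpins 0 of 15 were called in either layer. Id3 (0.91 ± 0.19, adjusted p = 0.0654) and Id4 (-0.42 ± 0.10, adjusted p = 0.103) had basal groups that do not overlap, and Foxc1 (-0.59 ± 0.28) and Klf8 (-0.56 ± 0.27) had the smallest p in luminal cells.

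All 9 corepressor and cofactor genes were tested. In shLUC, Ajuba, a LIM protein that binds Snail (at least 6.68-fold, adjusted p = 4.02e-05), and the deacetylase gene Hdac2 (0.64 ± 0.15) were higher in basal cells and Gsk3b, a kinase that marks Snail for degradation, was lower (-0.64 ± 0.13), while the other 6, among them Ctbp2 (0.41 ± 0.20), were not called. The median was 0.13. In shROR2, Ajuba was higher (at least 2.39-fold) and Gsk3b lower (-0.67 ± 0.15). The called counts, 2 of 9 in shROR2 and 3 of 9 in shLUC, are near the shares over all features, 22.9% in shROR2 and 26.9% in shLUC. Ajuba had signals of 44.0, 23.3 and 30.9 in basal shROR2 and 63.1, 111.9 and 105.9 in basal shLUC, without overlap (-1.44 ± 0.29, adjusted p = 0.0654). Ajuba was called without the array labelled basal shROR2 replicate 1 (-1.67, adjusted p = 0.0289), with normexp (-0.62, 0.0276) and with the authors' values (-0.58, 0.03). In luminal cells it was below the detection limit in both groups. Ajuba thus entered the test only through basal arrays, so its layer calls and the counts that include it are not independent of that selection. None of the 9 was called between the hairpins.

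All 18 other mesenchymal structural genes were tested, and 12 were higher in basal cells in shROR2 and 13 in shLUC, where the median was 2.30 and 1 was lower (the collagen cross-linking enzyme gene Loxl2, -0.74 ± 0.14). Acta2, smooth muscle actin, had signals of 50720, 51780 and 53250 in basal shROR2 and 59690, 59550 and 62500 in basal shLUC, against 352 and 385 in luminal shROR2 and 217, 190.5 and 179 in luminal shLUC. Basal arrays lay far above luminal ones, and both luminal shROR2 arrays above all luminal shLUC arrays. Its change was 8.22 ± 0.13 in shLUC. The microfibril gene Fbn1 was at least 27.5-fold higher in basal shLUC cells, and the matrix and contractile genes Sparc (5.88 ± 0.11) and Tagln (4.69 ± 0.13) were higher too. Without its basal arrays Fbn1 would not have entered the test, so its layer call is not independent of that selection. In luminal cells 0 of 18 were called between the hairpins, and Acta2 (0.88 ± 0.14, adjusted p = 0.158) and Sparc (0.62 ± 0.13, adjusted p = 0.318) lay above in both shROR2 arrays. In basal cells 0 of 18 were called, with Fbn1 at -0.55 ± 0.13 (adjusted p = 0.0917) and S100a4 at 0.58 ± 0.14 (adjusted p = 0.0966).

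**Figure D5:**
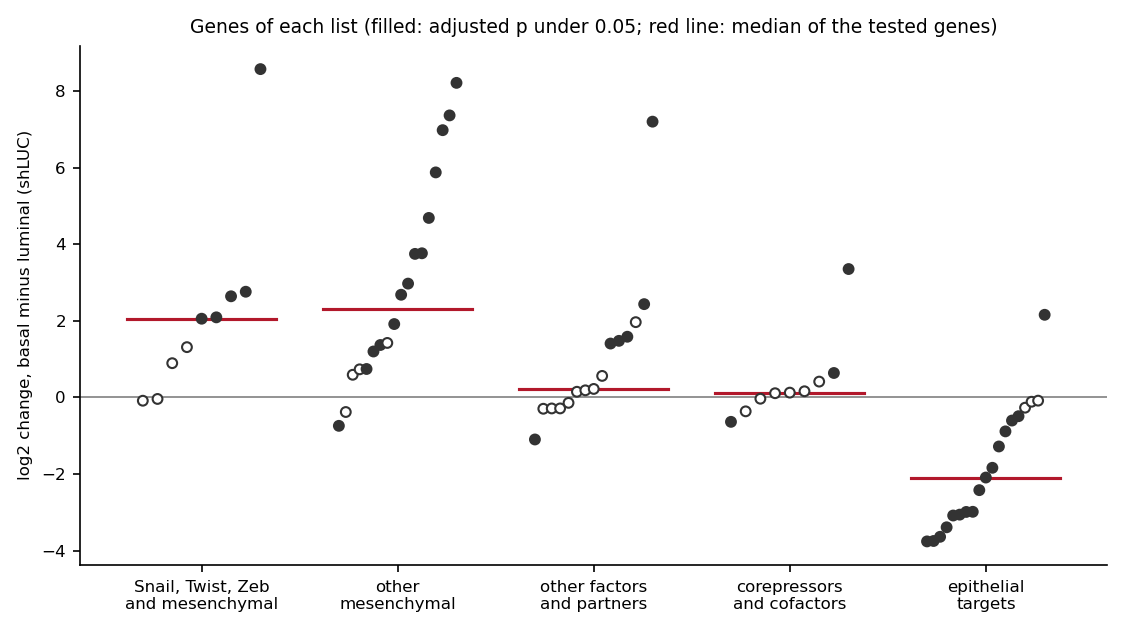
Change between basal and luminal cells in shLUC (y axis; log2, basal minus luminal) of every tested gene of the 9 described and of the 4 related lists; filled points had an adjusted p under 0.05 and red lines are medians. The medians are 2.06 for the 9 genes, 2.30 for other mesenchymal genes and -2.09 for epithelial targets.

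The named genes whose profiles over the 11 arrays lay nearest to each member were found by the root mean square difference of profiles centred on their own means, in log2 units. Nearest to Snai2 were Acta2 (0.26), Mylk (0.48) and Krt5 (0.48), which encode contractile proteins and a basal keratin. Nearest to Vim were Cavin1 (0.10), Apoe (0.12) and Pakap (0.13), and nearest to Fn1 were Praf2 (0.21), Itga8 (0.22) and Adgrl1 (0.22). Twist1 lay nearest to Pxdc1 (0.25), Alpl (0.27) and Serpinh1 (0.28), and Cdh2 to Cblb (0.25), Itga3 (0.26) and Kremen1 (0.27). Snai1 lay nearest to Gltp (0.37), Duox1 (0.37) and Tle4 (0.37). For Zeb1 (Eda, 0.42, then Plekhg1 and Dctd) and Twist2 (Fam71e1, 0.54, then Herc6 and Adpgk) the nearest genes were farther off, and for Zeb2, whose own SD was 0.39, they were Ccdc42 (0.20), Tceal8 (0.21) and Tmem140 (0.21). The points of each profile share 11 arrays in 4 groups, so nearness mostly restates the layer difference for genes with a large one.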

How the data were processed

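Intensities came from 11 one-colour arrays. The deposited processed signal of each spot is background-subtracted and detrended by Agilent Feature Extraction 11.0.1.1, per the file headers. The authors' table holds linear intensities that are not centred (column medians 88.8 to 89.3), and whether a background was subtracted before normalization is unknown. Here, log2 of the deposited processed signal minus each array's 75th percentile (112.3 to 131.4) was used. Control spots and outlier spots (110 to 163 per array) were left out, and spots of a probe averaged, leaving 55681 probes. Symbols came from RefSeq accessions through a GRCm38.p6 gene table, for 26582 probes.

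Probes had to be well above background, by the scanner's mark, on at least 3 arrays, which 33628 were (17 were dropped for a missing value). The probe with the highest mean stood for a gene, leaving 29429 features (14068 named). limma 3.58.1 in R 4.3.3 with the package data.table (version 1.17.8) fitted 4 group means (lmFit, eBayes, prior degrees of freedom 1.85), and 2-sided p were Benjamini-Hochberg adjusted within each of 5 comparisons and called under 0.05. Bounds ("at least") set the brighter group's mean against the higher of the dim probe's own signal and the lowest signal well above background, per array. Ror2, which failed the filter, was tested by exact permutation over arrays. Figures were drawn with matplotlib 3.10.9 and pandas 2.3.3 in Python 3.11.15. The fit was tested on simulated data.

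Named are all 9 genes, Ror2, the 3 nearest profiles, and from each of 4 lists up to 4 genes with the smallest p between layers in shLUC and up to 2 for each hairpin comparison; Cdh1, Dsp, Prrx1, Klf8, Loxl2, Tcf3, Tcf12, Snai3 and the called markers were named after their values were seen. The members and lists were chosen with earlier results of these data known. Alternatives were quantile and median scaling, normexp (offset 50) on the raw median signal (the files read here hold no mean signal), the authors' values, 2 other filters, all probes, slide and replicate blocks, array weights, fits of only the groups compared, and leaving out each array. No pair of arrays was identical. The leukocyte sum without Itgam, the basal sum without Krt14 and the endothelial sum without Kdr were added after seeing the data.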

Additional observations from a re-analysis of the deposited data

How the results depend on the processing

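No gene called in either setting changed sign under any alternative. Of 1903 recomputed values, 1805 kept their call or, for counts, stayed within 1.5 times, and 22 changed sign without being called under either setting. A gene uncalled in both settings counted as kept whatever its size, so this count does not show that sizes were stable. The luminal hairpin change of Snai2, which moved from 1.41 to 0.12 with normexp, counted as kept. The 5 basal calls in shLUC held under every alternative for Snai2, Twist1, Vim, Cdh2 and Fn1, with 5 or 6 of the 9 genes called. In shROR2, 4 to 6 were called without single arrays. Between the hairpins in luminal cells, 1 of the 9 genes was called under quantile normalization and the stricter filter and 2 with array weights, and 0 to 1 without single arrays. In basal cells 1 was called with normexp and 1 with the authors' values, and 0 without any single array. The difference of the hairpin changes called 0 of the 9 throughout.

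Counts over all features moved more. In shROR2 the layers differed at 6728 features, and at 2822 with only the groups compared (1602 higher, 1220 lower), with 3768 to 7540 without single arrays. Without single arrays the shLUC count was 5827 to 9542, against 7902. The luminal hairpin count of 1 became 5 (quantile), 0 (median scaling), 22 (normexp), 22 (authors' values), 3 (no filter), 6 (stricter filter), 0 (slide block), 0 (replicate block), 62 (array weights) and 0 (only the groups compared), with 0 to 10 without single arrays. The basal hairpin count of 279 became 688 (normexp), 539 (authors' values), 131 (no filter), 128 (slide block), 37 (replicate block), 44 (array weights) and 0 (only the groups compared), with 21 to 878 without single arrays. The count for the difference, 0, became 2 (quantile), 1 (median scaling), 7 (normexp), 7 (authors' values) and 3 (stricter filter), with 0 to 8 without single arrays. The causes were not tested.

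Whether replicate numbers pair the samples is not known. Deviations of arrays with the same number correlated at -0.037 to 0.040. Arrays with different numbers were not set beside them, so these values cannot show whether samples shared an outgrowth. With the replicate block, no call of the 9 genes changed, and Rab25 in basal cells (adjusted p = 0.0842) lost its call. Leaving out 1 luminal shROR2 array leaves a lone array, which is assumed to vary like the other groups. Signals near background limit Snai1, Twist1, Twist2 and, in luminal cells, Snai2: with normexp and the authors' values, whose low end is raised by the offset or floor, changes of dim genes shrank by over 1.5 times (Snai2 between layers in shLUC to as little as 5.03, Twist1 to 0.36).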
